A study of Mus musculus with 16 samples.

Results

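Acot1, Acot2, Acot3, Acot4, Acot5 and Acot6 are 6 acyl-CoA thioesterase genes that lie side by side on mouse chromosome 12. They were chosen by name, and their probes were found through the RefSeq accession that each probe carries. They are 6 of the 20659 genes named on the array, with 8 of its 39429 probes, and all 8 probes passed the filter on dim signals that left 15053 genes tested. Acot3 and Acot5 have 2 probes each and the other members 1. The group was picked because Acot1 had the largest rise with SQ1 of all genes tested, so that every SQ1 value of a member below is a description with no test.

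The RNA came from primary hepatocytes of male C57Bl/J mice, cultured in Williams Medium E. All cells were plated and kept for 48 h before drugs were added to some of them for another 48 h. The 3 groups were untreated control cells, cells with SQ1 (squalestatin 1, a squalene synthase inhibitor, 100 µM per the labels, a unit that is uncertain for so potent a compound) and cells with pravastatin (an HMG-CoA reductase inhibitor, 30 µM). Each of 16 arrays compared treated with control RNA, 8 arrays for each drug, with the treated RNA in Alexa 647 for replicates 1 to 4 and in Alexa 555 for replicates 5 to 8. The controls of the 8 numbers served both drugs, so that the 2 comparisons are not independent and their values are set side by side only. Each slide held 4 arrays of 1 drug: SQ1 on slides 1 and 2, pravastatin on slides 3 and 4. Slides 1 and 3 held replicates 1, 2, 5 and 6 and slides 2 and 4 the other numbers, and slide 3 was scanned on another day than the other 3, so that slide, replicate set and, for pravastatin, scan day cannot be told apart. The labels call the 8 samples of a group biological replicates without naming animals, so that p-values measure the spread between these arrays, which may in part be technical.

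Acyl-CoA thioesterases split acyl-CoA into a free fatty acid and coenzyme A, and so set how much acyl-CoA a compartment of the cell holds. The 6 clustered genes encode closely related enzymes: Acot1 is cytosolic, Acot2 mitochondrial, and Acot3, Acot4, Acot5 and Acot6 are known from peroxisomes. In the liver they are known as targets of PPARalpha, the nuclear receptor that fatty acids activate and that binds direct repeats of a hexamer as a dimer with RXR.

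The start regions of the genes are shown because members were high together with SQ1 and because that hexamer can be looked for in them. RefSeq windows (GRCm38.p6) from 250 bases before to 50 after the start were at hand for 5 of the 6 members, all but Acot6. Both strands were searched for the hexamer AGGTCA and for 2 copies of AGGNCA with 1 base between them, and capitals mark the matches in the 4 windows below. For Acot3 and Acot5, which have 2 overlapping windows each, the first is shown.
Acot1, chr12:84009252-84009551, + strand: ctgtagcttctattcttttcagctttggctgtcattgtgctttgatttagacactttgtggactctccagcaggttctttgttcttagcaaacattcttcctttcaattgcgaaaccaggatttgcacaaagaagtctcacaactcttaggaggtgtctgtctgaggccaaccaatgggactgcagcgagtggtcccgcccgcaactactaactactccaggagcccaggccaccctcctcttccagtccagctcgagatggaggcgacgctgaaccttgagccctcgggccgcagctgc
Acot3, chr12:84051894-84052193, + strand: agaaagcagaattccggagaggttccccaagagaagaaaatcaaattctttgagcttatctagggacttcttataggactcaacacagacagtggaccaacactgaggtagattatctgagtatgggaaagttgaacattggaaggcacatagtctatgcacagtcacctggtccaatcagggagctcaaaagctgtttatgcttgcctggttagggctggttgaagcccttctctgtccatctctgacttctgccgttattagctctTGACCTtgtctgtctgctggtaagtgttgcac
Acot4, chr12:84038129-84038428, + strand: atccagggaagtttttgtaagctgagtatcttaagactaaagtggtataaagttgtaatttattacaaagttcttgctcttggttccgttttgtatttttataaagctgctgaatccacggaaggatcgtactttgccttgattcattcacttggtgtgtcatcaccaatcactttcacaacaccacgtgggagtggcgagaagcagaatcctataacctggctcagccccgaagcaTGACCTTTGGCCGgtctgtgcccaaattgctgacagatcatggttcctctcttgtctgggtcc
Acot5, chr12:84069074-84069373, + strand: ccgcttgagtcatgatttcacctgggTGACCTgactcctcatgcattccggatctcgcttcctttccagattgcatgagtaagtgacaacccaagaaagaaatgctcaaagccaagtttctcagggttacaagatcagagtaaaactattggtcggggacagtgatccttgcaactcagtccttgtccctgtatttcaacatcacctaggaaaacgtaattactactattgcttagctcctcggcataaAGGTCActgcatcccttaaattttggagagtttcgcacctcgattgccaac

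The Acot1 window held no such hexamer, nor did that of Acot2, which is not shown. The Acot3 window held 1 on the minus strand, beginning at base 19 after the start, and the Acot4 window 1 on the minus strand, 13 bases before it. Acot5 had 1 on the minus strand, 224 bases before the start, and 1 on the plus strand, 1 base before it. Of 32841 windows of this length, 5339 (16.3%) held at least 1 hexamer. No member window held the exact repeat, which was found in 0.381% of all windows. With 1 mismatch allowed, a search added after the exact one, Acot4 had a match, CGGCCAAAGGTCA on the minus strand, which includes its hexamer, and 4.71% of all windows had at least 1. These matches are letters in a window and not sites of binding.

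In cells given SQ1, 5 of the 6 genes were at least 1.5-fold higher than control, Acot1 to Acot5, and Acot6 was 1.14-fold higher. With pravastatin 5 of the 6 were lower past the threshold, Acot1, Acot3, Acot4, Acot5 and Acot6, and Acot2 was not past it. Of all genes tested, 0.884% were at least 1.5-fold higher with SQ1, a share from which nothing is read since the genes were chosen there. With pravastatin 35.8% were lower past the threshold and 66.7% changed in either direction. Over the 15053 genes the median log2 ratio was -0.002 with SQ1 and -0.011 with pravastatin, with a median standard error of 0.04 for each.

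**Figure D1:**
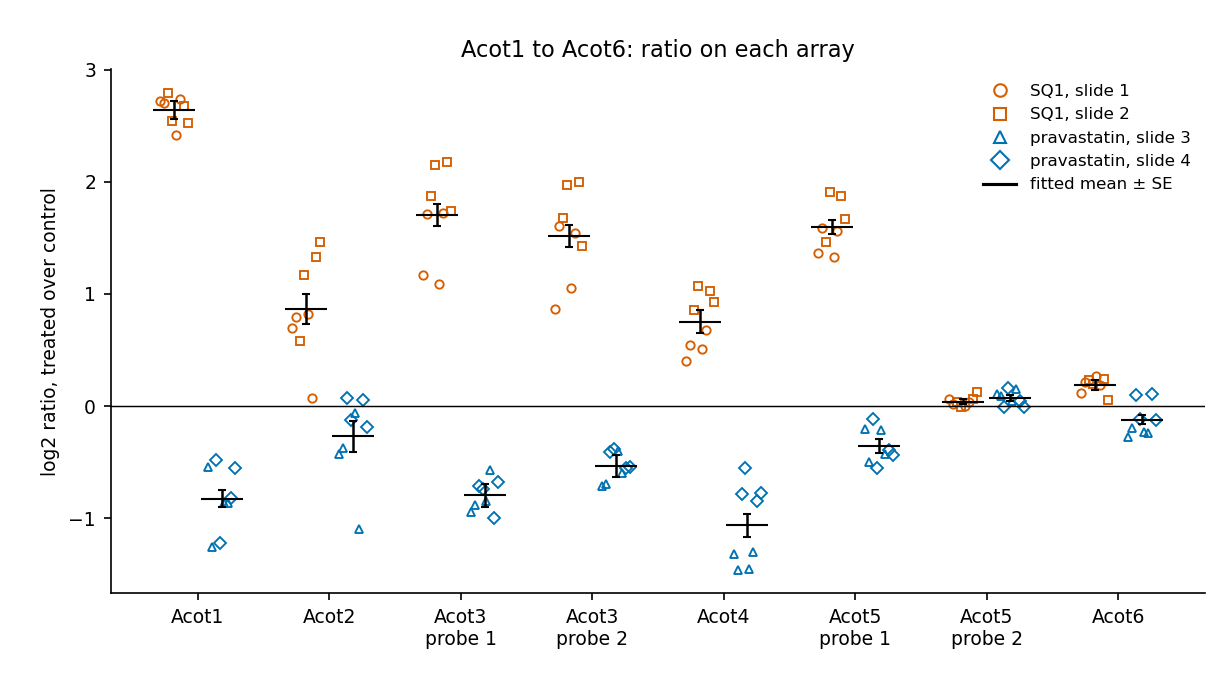
Log2 ratio of treated over control (vertical axis) of the 8 probes of Acot1 to Acot6 (horizontal axis) on each array, dye effect removed, with SQ1 in orange, pravastatin in blue, 1 marker shape for each slide, and the fitted mean ± SE in black. The 8 SQ1 arrays of Acot1 sit between 2.42 and 2.80, while the second probe of Acot5 stays near 0 with both drugs.

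Acot1, the cytosolic enzyme, ranked first of all genes by its rise with SQ1. Its log2 ratio of SQ1 over control was 2.42 on the lowest array, 2.69 at the median and 2.80 on the highest of 8. All 8 arrays lay within 0.38 of each other, and the slides agreed, at 2.65 and 2.64. The fitted rise was 2.64 ± 0.08, or 6.24-fold. With pravastatin the ratio was -1.25 on the lowest array, -0.84 at the median and -0.48 on the highest, so that all 8 arrays were below control. The fitted fall was 1.77-fold (-0.83 ± 0.08, adjusted p = 7.93e-08, limma). All 8 arrays of a drug were lower than control for 26.2% of genes with pravastatin.

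The control level of Acot1 differed between replicates. In the 16 control channels its log2 intensity ran from 12.17 to 13.59. Controls 4, 7 and 8 read 13.38, 13.59 and 13.29 beside SQ1 and 13.49, 13.40 and 13.10 beside pravastatin, and the other 5 read 12.17 to 12.75 on either kind of array. The SQ1 channels ran from 14.81 to 16.35 and lay above every control channel. The pravastatin channels, from 11.42 to 12.66, overlapped the controls, although each lay below the control on its own array. For this and the other members, channel ranges are a description only. The share of all genes whose groups lie apart is not given here.

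Acot2, the mitochondrial enzyme, had a smaller ratio than Acot1 and varied more. Its log2 ratio with SQ1 was 0.07 on the lowest array, 0.81 at the median and 1.46 on the highest, with slide means of 0.60 and 1.14. The fitted value was 0.87 ± 0.14 (1.82-fold), and 1.33 by the Agilent ratio, which corrects the background in another way. With pravastatin its ratio ran from -1.10 through a median of -0.15 to 0.08, with 6 arrays below control and 2 above. This difference was not past the threshold (-0.27 ± 0.14, adjusted p = 0.0971, limma), with -0.49 on slide 3 alone (adjusted p = 0.0115) and -0.04 on slide 4 alone (adjusted p = 0.829). Replicate 6 was the lowest array with both drugs, and the control of that number had the highest Acot2 level on both, 8.07 and 8.19 on the log2 scale against 7.0 to 7.86 in the other 14 control channels. Without replicate 6 of the drug in question, the value was 0.99 with SQ1 and -0.14 with pravastatin (adjusted p = 0.337). The intensities of Acot2 in the SQ1 channels, 7.86 to 9.16, and in the pravastatin channels, 6.86 to 7.66, both overlapped those of the controls.

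**Figure D2:**
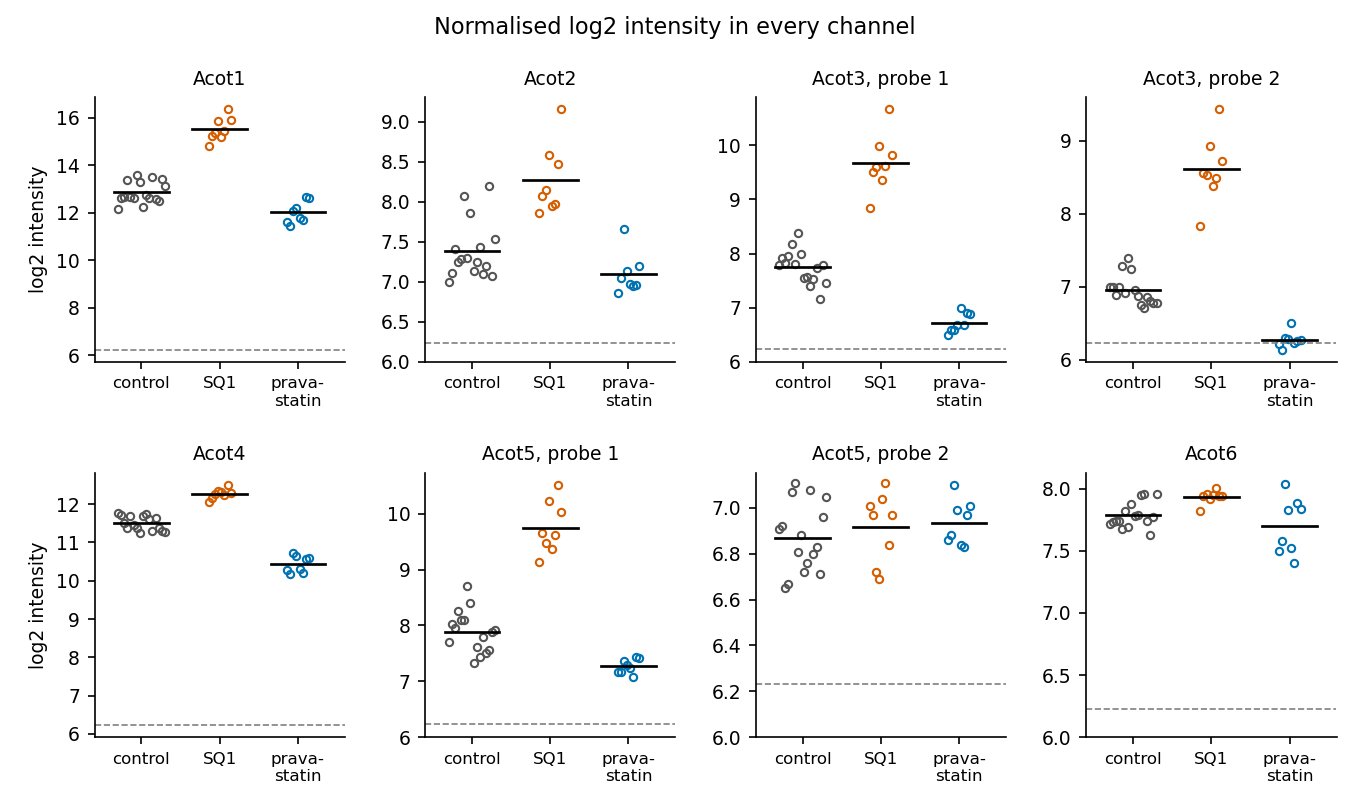
Log2 intensity (vertical axis, its own range in each panel) of the 8 probes in all 16 control channels (grey), 8 SQ1 channels (orange) and 8 pravastatin channels (blue), with group means as black bars. The dashed line at 6.23 is the median of probes not well above background in the control channels, and the pravastatin points of the second Acot3 probe lie along it.

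Acot3, a peroxisomal thioesterase of long-chain acyl-CoA, ranked 6 by its rise with SQ1 and is read by 2 probes. The brighter probe had log2 ratios with SQ1 of 1.09 on the lowest array, 1.73 at the median and 2.18 on the highest, with a fitted value of 1.70 ± 0.10 (3.26-fold). Its 8 SQ1 channels, at log2 intensities of 8.85 to 10.67, lay above all controls (7.15 to 8.38), and its pravastatin channels, at 6.49 to 6.99, lay below them. With pravastatin the ratio ran from -1.0 through -0.80 to -0.57, lower than control on all 8 arrays. The fall was 1.74-fold in the fit (-0.80 ± 0.10, adjusted p = 2.65e-06, limma), and the log2 ratio was -1.81 by the Agilent ratio. The other probe gave 1.52 ± 0.10 with SQ1. It was not well above background in any of the 8 pravastatin channels and was in all 16 control channels. In the fit Acot3 was 1.45-fold lower by this probe, from a control mean of 6.81 to 6.28 in the pravastatin channels (adjusted p = 0.000144 over probes, limma). Since those channels were not well above background, the size of this fall is uncertain. Its log2 ratio was -0.54 in the fit, -0.86 without background correction and -3.15 by the Agilent ratio. With the drug means removed, the ratios of both probes correlated at 0.90 over 16 arrays, a description with no test. Taken by drug, r was 0.97 over the 8 SQ1 arrays and 0.31 over the 8 pravastatin arrays.

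Acot4, which prefers succinyl-CoA and other dicarboxylic acyl-CoAs, had the smallest fitted ratio of Acot1 to Acot5 with SQ1 and a fall with pravastatin that was the largest of the members in the fit. It was not the largest by the Agilent ratio or without background correction, where Acot3 was lower, nor on slide 4 alone, where Acot1 and Acot3 were. With SQ1 its log2 ratio was 0.41 on the lowest array, 0.77 at the median and 1.07 on the highest, with a fitted value of 0.75 ± 0.10 (1.69-fold). With pravastatin it was -1.46, -1.08 and -0.56, and the fitted fall was 2.09-fold (-1.06 ± 0.10, adjusted p = 1.19e-07, limma). The log2 intensities were 10.19 to 10.73 with pravastatin, 11.25 to 11.78 in controls and 12.07 to 12.51 with SQ1. The fall was -1.38 on slide 3 and -0.74 on slide 4, and all 4 arrays of slide 3 were below all 4 of slide 4 (adjusted p = 9.51e-05 for these 2 sets of replicates, limma). Of all genes, 21.8% differed between these slides. With SQ1 the 4 arrays of slide 1 (mean 0.54), which hold the replicate numbers of slide 3, were below the 4 of slide 2 (mean 0.97).

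Acot5, a peroxisomal thioesterase of medium-chain acyl-CoA, was read differently by its 2 probes. By the brighter one, its log2 ratio with SQ1 was 1.33 on the lowest array, 1.58 at the median and 1.91 on the highest, and the fitted value of 1.60 ± 0.06 (3.02-fold) ranked 7 among the rises. With pravastatin this probe ran from -0.55 through -0.41 to -0.11, below control on all 8 arrays, and fell 1.28-fold (-0.36 ± 0.06, adjusted p = 0.000111, limma). Its SQ1 channels (9.13 to 10.52) lay above all controls (7.32 to 8.70), while the pravastatin channels (7.07 to 7.44) overlapped them. The other probe was at 0.04 ± 0.03 with SQ1 and 0.07 ± 0.03 with pravastatin (adjusted p = 0.0171 over probes, limma), a rise of 1.05-fold that was lost in several other settings, such as median centring. Of all probes tested singly, 31.1% were higher with pravastatin and 32.7% lower. This probe was marked well above background in every channel, with means of 6.87 in controls, 6.92 with SQ1 and 6.94 with pravastatin. Both probes carry the same accession, and what the dim probe binds was not tested, so that the values of Acot5 rest on 1 of its 2 probes.

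Acot6, a peroxisomal thioesterase of branched acyl-CoA, hardly moved. With SQ1 its log2 ratio was 0.05 on the lowest array, 0.20 at the median and 0.27 on the highest, with a fitted value of 0.19 ± 0.04. It ranked 1161 by its rise. With pravastatin it ran from -0.28 through -0.16 to 0.11, with 6 arrays below control and 2 above. The fall, 1.09-fold (-0.12 ± 0.04, adjusted p = 0.0175, limma), was at -0.23 on slide 3 and -0.01 on slide 4, and the slides differed (adjusted p = 0.0217, limma). The call was lost on slide 4 alone (adjusted p = 0.885), with median centring (adjusted p = 0.181), with the Agilent ratio (adjusted p = 0.0822), with slide or scan day as a random block (adjusted p = 0.0745 and 0.0646) and without pravastatin replicate 1, 5 or 6 (adjusted p = 0.061, 0.0532 and 0.0545). The intensities of the 3 groups overlapped, at 7.63 to 7.96 in controls, 7.82 to 8.01 with SQ1 and 7.40 to 8.04 with pravastatin.

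From array to array the members varied in different ways. Over the 8 SQ1 arrays the ratios of Acot3, Acot4 and Acot5 varied together, with r of 0.89 for Acot3 and Acot4, 0.90 for Acot3 and Acot5 and 0.85 for Acot4 and Acot5, all of them higher on average on slide 2 than on slide 1. Acot1 did not share this, with r of 0.26, -0.07 and -0.05 to these 3. Over the 8 pravastatin arrays the same 3 pairs had r of 0.23, -0.16 and -0.21, and the highest value for Acot1 was 0.73 with Acot5. These correlations describe arrays that share slides and have no test.

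**Figure D3:**
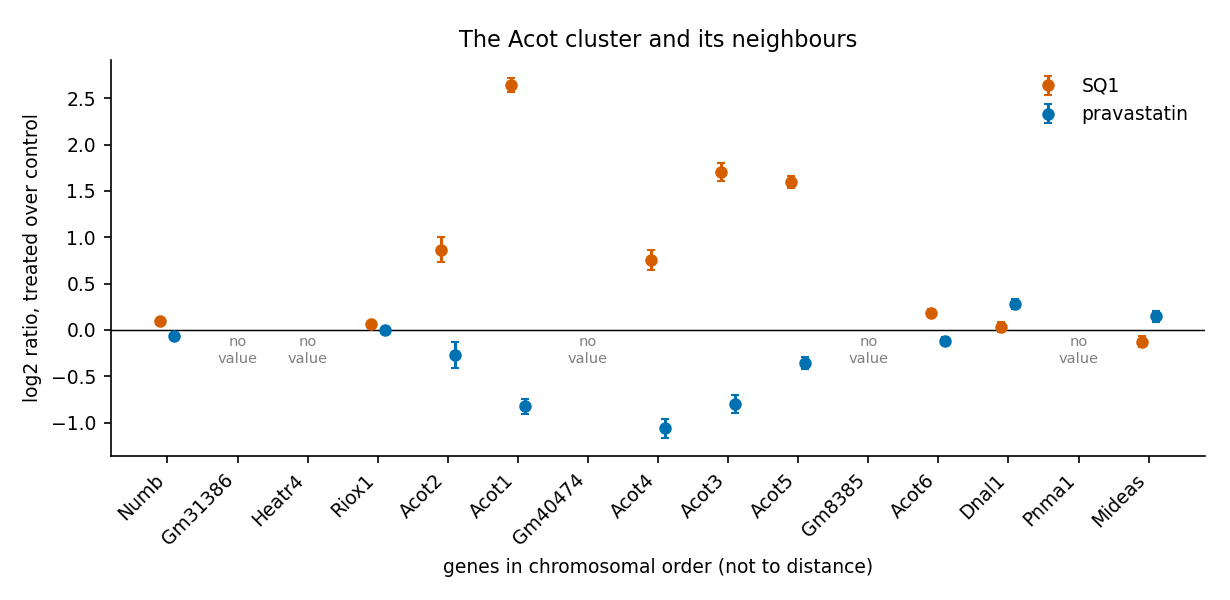
Log2 ratio of treated over control ± SE (vertical axis) for SQ1 (orange) and pravastatin (blue) of the Acot genes and their neighbours in chromosomal order (horizontal axis, not drawn to distance). Acot1 to Acot5 are high with SQ1 between neighbours that stay within 0.13 of 0, and genes without a value were not on the array or not tested.

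Along the chromosome the genes run in the order Acot2, Acot1, Acot4, Acot3, Acot5, Acot6, with the non-coding Gm40474 and the pseudogene Gm8385, neither on the array, among them. Of the 3 nearest on one side, Gm31386 and Heatr4 were not on the array. Riox1, a hydroxylase of ribosomal protein, was at 0.06 ± 0.03 with SQ1 (adjusted p = 0.175, limma) and 0.00 ± 0.03 with pravastatin (adjusted p = 0.99, limma). On the other side Dnal1, a dynein light chain gene next to Acot6, was at 0.03 ± 0.06 with SQ1 (adjusted p = 0.72, limma) and rose with pravastatin (0.28 ± 0.06, adjusted p = 0.000309, limma). Pnma1 was not tested, and Mideas was at -0.13 ± 0.06 with SQ1 and 0.15 ± 0.06 with pravastatin (adjusted p = 0.138 and 0.0509, limma). Whether the Acot genes differ from these neighbours was not tested.

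Thioesterase genes outside the cluster were tested in 8 of 9 cases, all but Them5. With SQ1, 2 of the 8 rose, Acot12, a cytosolic acetyl-CoA thioesterase (0.37 ± 0.11, adjusted p = 0.0182, limma), and Acot13 (0.13 ± 0.04, adjusted p = 0.0108, limma), 6 were not past the threshold, and the median was 0.10. Of all genes, 32.3% changed with SQ1, 15.8% rising and 16.5% falling. Both calls were lost with slide or scan day as a random block. The Acot12 call was also lost on slide 1 alone and without SQ1 replicate 4, 7 or 8. That of Acot13 was also lost with median centring and on slide 2 alone. With pravastatin 5 of the 8 fell: Acot12 (-1.65 ± 0.11), Acot11 (-0.61 ± 0.08), Them4 (-0.50 ± 0.06), Acot8, a peroxisomal thioesterase (-0.22 ± 0.04), and Acot13 (-0.21 ± 0.04). Acot7, best known from brain, rose by 0.43 ± 0.04, and Acot9 and Acot10 were both at 0.11 and not past the threshold. The median of the 8 was -0.21, and 30.9% of all genes rose with pravastatin. The calls of Acot8 and Acot13 with pravastatin were lost with median centring.

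The bile acid and fatty acid N-acyltransferases, relatives of these thioesterases that pass the acyl group to an amino acid, were tested too. Acnat1 rose by 0.62 ± 0.11 and Acnat2 by 0.65 ± 0.13 with SQ1, and Baat, which conjugates bile acids, was at -0.34 ± 0.15 and not past the threshold. All 3 fell with pravastatin, Baat furthest (-3.66 ± 0.15), then Acnat2 (-1.99 ± 0.13) and Acnat1 (-1.68 ± 0.11).

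**Figure D4:**
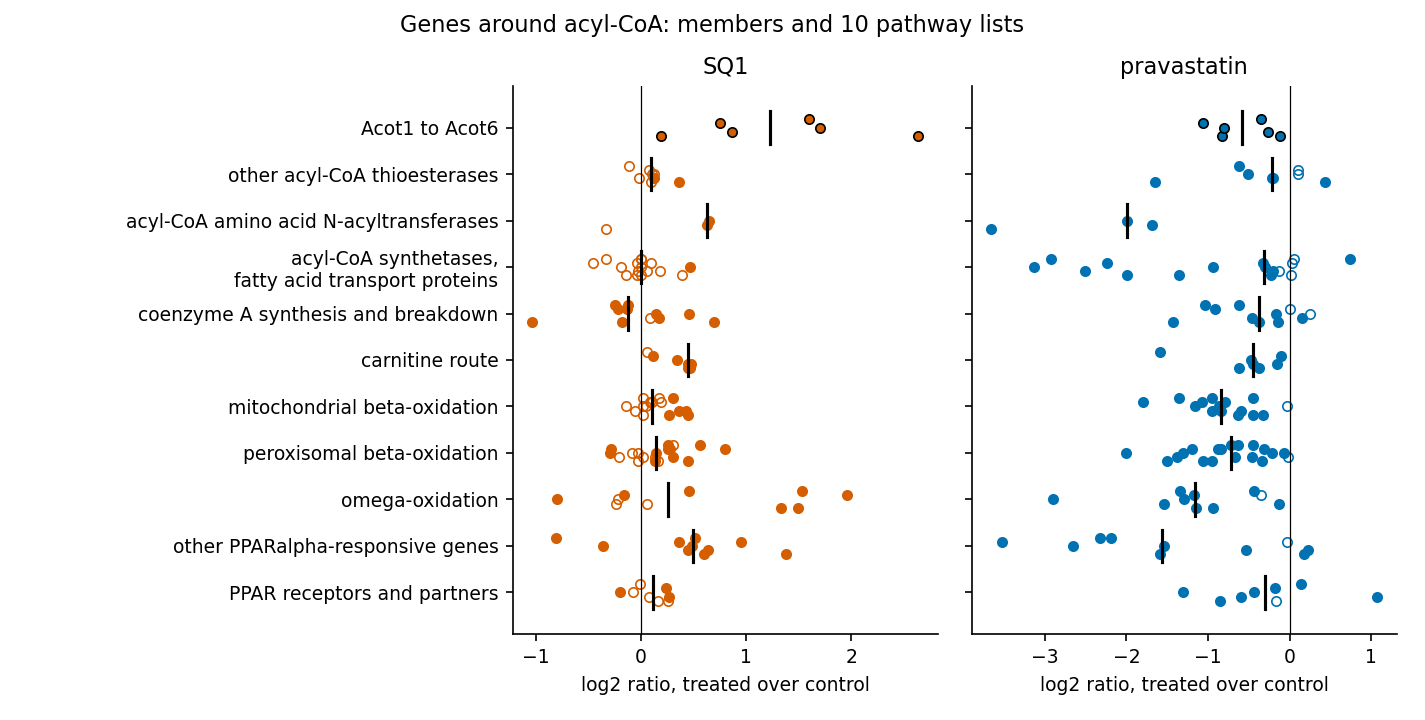
Log2 ratio of treated over control (horizontal axes) of each tested gene in 10 pathway lists and of Acot1 to Acot6 (rows), for SQ1 and pravastatin, with filled points past the threshold, open points not past it, the members outlined in black without a call, and black bars at the median. With pravastatin 87 of 107 list genes are lower, and with SQ1 44 are higher, beside 35.8% and 15.8% of all genes tested.

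Around these enzymes, 107 genes of acyl-CoA formation, transport and oxidation in 10 lists were tested, and the lists of thioesterases and N-acyltransferases are 2 of them. With SQ1, 44 of them rose and 13 fell, the other 50 did not pass the test, and the median was 0.12. With pravastatin 87 fell, 7 rose and 13 were not past it, with a median of -0.62. Of all genes tested, 15.8% rose and 16.5% fell with SQ1, and 30.9% rose and 35.8% fell with pravastatin. The counts of each list below are to be read beside these shares. With scan day as a random block, the count of rises with SQ1 was 27, and among the genes named here the rises of Acnat2, Pank1, Cpt1b and Fabp1 were lost.

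Enzymes that make acyl-CoA were mostly not past the threshold with SQ1. Of 16 synthetases and fatty acid transport proteins, 1 rose, Acsl4, a synthetase that prefers arachidonate (0.47 ± 0.06). Acsm5 was at -0.45 ± 0.24 and not past the threshold, and it ran from -1.13 to 0.22 over the alternative settings. With pravastatin 11 of the 16 fell and 1 rose, led by the transport protein Slc27a2 (-3.13 ± 0.20) and the medium-chain synthetase Acsm1 (-2.92 ± 0.19). Of 11 genes of coenzyme A synthesis and breakdown, 4 rose and 6 fell with SQ1. Pank1, the kinase that begins coenzyme A synthesis, rose by 0.70 ± 0.12, while the pantetheinase Vnn3 fell by 1.03 ± 0.18. With pravastatin 8 of the 11 fell and 1 rose, with Vnn3 at -1.43 ± 0.18 and Vnn1 at -1.04 ± 0.08.

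The carnitine route, which carries acyl groups into mitochondria, rose with SQ1 in 6 of 7 genes and fell with pravastatin in 7 of 7. Cpt1b rose by 0.47 ± 0.12 with SQ1 and Slc25a20, the carnitine-acylcarnitine carrier, by 0.47 ± 0.05. With pravastatin Slc25a20 was at -0.62 ± 0.05 and Crot, the peroxisomal octanoyltransferase, at -1.58 ± 0.09. Of 15 genes of mitochondrial beta-oxidation, 5 rose with SQ1, led by Acadl (0.44 ± 0.03) and Decr1 (0.42 ± 0.07), and 0 fell. With pravastatin 14 of the 15 fell, led by the thiolase Acaa2 (-1.80 ± 0.11) and Acad11 (-1.36 ± 0.12).

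Of 19 genes of peroxisomal beta-oxidation, 9 rose and 2 fell with SQ1. The bifunctional enzyme Ehhadh rose by 0.80 ± 0.11 and the isomerase Eci2 by 0.56 ± 0.05. With pravastatin 18 of the 19 fell, led by Scp2 (-2.01 ± 0.11). Of 10 genes of omega-oxidation, which makes dicarboxylic acids, 5 rose and 2 fell with SQ1, led by the hydroxylases Cyp4a14 (1.96 ± 0.16) and Cyp4a31 (1.53 ± 0.10). With pravastatin 9 of the 10 fell, led by Cyp4f14 (-2.90 ± 0.12) and Cyp4a12a (-1.54 ± 0.16).

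Of 10 other genes known to respond to PPARalpha, 8 rose and 2 fell with SQ1. Pdk4, the kinase that shuts off pyruvate dehydrogenase, rose by 1.38 ± 0.05, and the fatty acid binding protein gene Fabp1 by 0.95 ± 0.25. With pravastatin 7 of the 10 fell and 2 rose, and the falls were led by Fabp1 (-3.53 ± 0.25). Among 8 receptors and partners, 2 rose and 1 fell with SQ1, and 5 fell and 2 rose with pravastatin. Ppara, the receptor gene itself, was at 0.26 ± 0.22 with SQ1 and not past the threshold. With pravastatin it fell by 0.86 ± 0.22 (adjusted p = 0.0023, limma), a call lost on slide 4 alone. Ppard rose with both drugs, by 0.27 ± 0.03 and 1.07 ± 0.03, and Hnf4a, a regulator of hepatocyte genes, fell with pravastatin (-1.3 ± 0.10).

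Genes that tracked the members over the 16 arrays were ranked by Pearson correlation of their ratios. This r is mostly high where a gene read higher with SQ1 than with pravastatin. It does not measure the size or direction of a change against control. For Acot1 the 6 closest were Eci3 (r = 0.988), Zhx3 (0.986), Angptl4 (0.985), Tceal5 (0.985), Gltpd2 (0.982) and Eci2 (0.981), and 905 of 14961 genes had r over 0.9. Of these 6, Angptl4, an inhibitor of lipoprotein lipase, was at 0.64 ± 0.03 with SQ1 and -0.53 ± 0.03 with pravastatin. Zhx3 was at 0.15 ± 0.04 and -1.06 ± 0.04. With the drug means removed, r of these 6 to Acot1 was 0.09 to 0.50. For Acot4 the 3 closest were Crot (0.998), Slc16a7 (0.997) and Etfb, an electron transfer protein of beta-oxidation (0.996). With the drug means removed they stayed at 0.96 to 0.97. Of the 14961 genes, 1695 had r over 0.9 to Acot4 before the drug means were removed. For Acot5 the 3 closest were Cyp4a31 (0.986), Cyp26a1 and Rec114, and for Acot3 Cyp2a12 (0.991), Nr1i2 and St3gal5. For Acot2 they were Hexdc (0.946), Acy1 and Saa4, and for Acot6 Micu2 (0.962), Rogdi and Ap3d1. Some of these genes did not move as the member did. Saa4 was below control with both drugs (-0.31 ± 0.10 with SQ1 and -1.45 ± 0.10 with pravastatin). Cyp26a1 was at -0.04 ± 0.04 with SQ1, and with pravastatin Rec114 was at -0.03 ± 0.02 and Ap3d1 at 0.05 ± 0.03. With the drug means removed, r of the genes named was 0.75 to 0.81 for Acot3, 0.82 to 0.86 for Acot2 and 0.86 to 0.92 for Acot6. It was 0.51 to 0.59 for Acot5. Differences between slides were left in. The correlations describe arrays that share controls and slides, and have no test.

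Markers of cell types moved beside the Acot genes. Over all genes tested, 15.8% rose and 16.5% fell with SQ1, and 30.9% rose and 35.8% fell with pravastatin. Of 11 tested hepatocyte markers, all fell with pravastatin, with a median of -1.3, and their summed linear level was 471000 to 979000 in pravastatin channels against 1090000 to 1750000 in controls. With SQ1 5 of the 11 fell and 0 rose, with a sum of 947000 to 1480000. Hepatocyte markers had a median of -1.51 on slide 3 and -1.14 on slide 4 with pravastatin. With SQ1 it was -0.31 and -0.10 on slides 1 and 2. Acot4 had the same order of slides, which was not particular to hepatocyte markers. In every pathway list the median was lower on slide 3 than on slide 4, such as mitochondrial beta-oxidation (-1.05 and -0.62). With SQ1 it was lower on slide 1 than on slide 2 in every pathway list but that of thioesterases (0.14 and 0.05). Endothelial and cholangiocyte markers had the reverse order with both drugs. Of 10 markers of Kupffer cells and leukocytes, 8 fell with pravastatin and 5 with SQ1, and 0 rose with either. Of 7 endothelial markers, 4 fell and 2 rose with pravastatin, and 3 rose and 0 fell with SQ1. Of 8 stellate cell and fibroblast markers, 2 fell and 0 rose with pravastatin, and 2 rose and 0 fell with SQ1. Of 6 cholangiocyte markers, 3 fell and 1 rose with pravastatin, and 3 fell and 0 rose with SQ1. The hepatocyte markers, among them Alb, Ttr and Apoa1, were well above background in all 16 control channels, and those of the other cell types in at least 13. Their part in the falls of the Acot genes was not tested, and in such bulk samples fewer cells of a type and less RNA per cell cannot be told apart.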

How the data were processed

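Primary hepatocyte RNA was measured on 16 2-colour Agilent arrays, 8 for SQ1 and 8 for pravastatin, each with treated RNA in 1 dye and untreated control RNA in the other. The deposited scanner files hold, for each channel, median spot and local background intensities that the authors deposited without normalization, and a processed red over green ratio on the log10 scale made, per the file headers, by Agilent Feature Extraction 11.0.1.1. A table of the whole series, also deposited, holds treated over control values on the log2 scale, which correlated with that ratio at 0.742 to 0.999 per array over all probes, so that its values are not the same for all probes on all arrays. Further steps of the authors are not given in the sources used here.

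Intensities were corrected with normexp (offset 50) and loess in limma 3.58.1 (R 4.3.3), with outlier spots left out and spots of 1 probe averaged. The RefSeq accession of a probe gave its gene, for 27234 of 39429 probes. A probe was tested if it was marked well above background in at least 4 treated channels of a drug or 8 control channels and if at least 7 arrays of each drug gave a ratio. A gene was represented by its brightest probe, and the Benjamini-Hochberg adjustment ran over 15053 genes, or over 25826 probes for second probes of a gene. Each drug entered the fit as plus or minus 1 by dye, with a constant dye term and 13 residual degrees of freedom. All tests were two-sided, and the threshold was an adjusted p under 0.05. Levels are channel intensities on the log2 scale after between-array quantile scaling of the mean intensity (Aquantile).

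The members, gene lists, tests and alternatives were chosen with earlier results of these data known. The named genes are the members with all their probes, the other acyl-CoA thioesterases and N-acyltransferases, from each other pathway list the 2 genes furthest from 0 with each drug, the genes most correlated with each member and the 3 nearest annotated genes on each side; some genes that this rule names are not reported here. The controls of the 8 replicate numbers served both drugs, per the names in the deposited data. Same-numbered arrays deviated together, with r of 0.22 to 0.72 in the 8 pairs. Of the 16 arrays, 7 correlated best with the array of their own number. Such pairs also share a control, so that r does not by itself show that the numbers pair the treated samples. The fit was tested on simulated data. Protein sequences of the members and sequences of the probes were not used here.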

Additional observations from a re-analysis of the deposited data

Results flagged for a closer look

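By the probe that represents Acot1, Acot3, Acot4 and Acot5, each of the 8 SQ1 arrays lay above 0 and each of the 8 pravastatin arrays below it, with the dye effect removed. Of all genes, 26.2% were below 0 on all 8 pravastatin arrays. The second probe of Acot5 was above 0 on 7 SQ1 and 6 pravastatin arrays. The gap between the drugs, SQ1 minus pravastatin, was 3.47 for Acot1, 2.50 for Acot3, 1.82 for Acot4 and 1.95 for Acot5 on the log2 scale. This difference was not tested, since the genes were chosen on the SQ1 contrast, and the drugs share their controls.

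For Acot2 with pravastatin, replicate 6 stood apart at -1.10, where the other 7 arrays lay between -0.43 and 0.08. By the same measure about 1 in 20 groups of arrays would be marked by chance, and 16 groups of 8 arrays were looked at. The SQ1 array of replicate 6 was likewise the lowest of its 8, at 0.07. The control of that number had the highest Acot2 level on both arrays, 8.07 beside SQ1 and 8.19 beside pravastatin.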

How the results depend on the processing

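By the probes that represent them, Acot1, Acot3, Acot4 and Acot5 remained lower with pravastatin past the threshold under every alternative that gave a value. The alternatives were median centring, the Agilent ratio, the deposited table, no background correction, no filter, each probe by itself, replicate, slide and scan day blocks, slide as a fixed term, single slides and each array left out. The second probe of Acot5 was higher with pravastatin when each probe was taken by itself (0.07, adjusted p = 0.0171, limma). No value of a represented member turned its sign. The fit with the replicate block (correlation 0.47) changed no call of a member, with Acot1 at -0.83, Acot2 at -0.27, Acot3 at -0.80, Acot4 at -1.06, Acot5 at -0.36 and Acot6 at -0.12 with pravastatin. The Acot6 call with pravastatin was lost with median centring (-0.10), with the Agilent ratio and the deposited table (-0.12 in both), with a random block for slide or for scan day (-0.12 in both) and on slide 4 alone (-0.009), and leaving out 1 array at a time gave -0.16 to -0.10. Acot2 with pravastatin passed with slide as a fixed term (-0.27) and on slide 3 alone (-0.49), and was at -0.04 on slide 4 alone. With SQ1, the Agilent ratio and the deposited table moved Acot2 to 1.33, Acot3 to 2.12, Acot5 to 1.91 and Acot6 to 0.32. The cause of these shifts was not tested.

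Over all genes, 2076 were called with SQ1 with median centring (71.2% higher, against 48.8% of 4865), 2545 with a random block for slide and 2236 with one for scan day. With each probe by itself, 7500 probes were called with SQ1 and 16480 with pravastatin. Of the 107 pathway genes, 27 rose with SQ1 under the scan day block, against 44. Leaving out 1 array at a time gave 4047 to 5110 genes with SQ1 and 9615 to 10039 with pravastatin.

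Dim signals limit Acot2, Acot3, Acot5 and Acot6: their mean levels in control channels lie within 2 log2 units of the median of probes not well above background, and the offset of the background correction pulls their ratios toward 0. Whether close relatives share a probe was not tested, since the probe sequences were not used here.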

Other observations

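The control of each replicate number was measured on 2 arrays in the same dye, once beside SQ1 and once beside pravastatin. For Acot3 and Acot5 these readings differed. Acot3 read 7.98 beside SQ1 and 7.52 beside pravastatin on the log2 scale, higher in 8 of 8 pairs, with a mean difference of 0.45 (SD 0.13). Acot5 read 8.16 and 7.63, also higher in 8 of 8 pairs, with a mean difference of 0.53 (SD 0.13), and the second probe of Acot3 was 0.28 higher. Acot1 (0.04), Acot2 (0.05), Acot4 (0.02) and Acot6 (-0.07) differed by less. Over 14967 genes the median of this difference was -0.02, 1.54% were higher in all 8 pairs and 12.2% were lower in all 8. At a cut-off of 0.4, set after these values were seen, 8 genes (0.0535%) differed as much: beside Acot3 and Acot5 they were Cyp2b10 (0.62), Cyp2b9 (0.46), Vmn2r3, F13a1, Gtpbp3 and Diras2. With SQ1, Cyp2b10 had a log2 ratio of 1.32 and Cyp2b9 of 1.73. F13a1 was at 0.14, Gtpbp3 at -0.08, Vmn2r3 at -0.13 and Diras2 at -0.56. Readings beside SQ1 and beside pravastatin lie on different slides, so that drug and slide cannot be told apart here. The ratios of Acot3 and Acot5 with SQ1 are taken against the higher control readings, and the source of the difference was not tested.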
